A study of Mus musculus with 4 samples.

Results

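The genes described here encode the acid-making pump and the main proteases of the lysosome, measured in mouse gastrocnemius muscle. They were all rows of the expression files whose symbol began with Atp6v0, Atp6v1 or Atp6ap, was Cts followed by 1 letter, or was Lamp1 or Lamp2. The rule gave 46 of 23282 gene rows. The row Atp6v0c-ps2, a pseudogene symbol, held the same value as Atp6v0c in each of the 4 libraries, so the reads of these genes cannot be told apart and the pair was counted once. That left 45 genes, of which 25 are V-ATPase subunits and accessory proteins, 18 are cathepsins and 2 are lysosome membrane proteins.

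The lysosome is the acidic compartment in which cells break down proteins, lipids and sugars taken up from outside or delivered by autophagy. The vacuolar proton pump, or V-ATPase, acidifies it: the V1 sector on the cytosolic face hydrolyses ATP and turns a rotor that drives protons through the V0 sector in the membrane. Cathepsins are proteases, most of them active at low pH, and Lamp1 and Lamp2 are the abundant glycoproteins that line the lysosomal membrane. In skeletal muscle the pathway is known for the turnover of myofibre proteins and organelles, and cathepsin L transcript is known to increase in wasting muscle.

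The study crossed high-intensity treadmill exercise (E) with a tumor (T). The tumor was given to CDF1 mice as CT26 cells, a murine colorectal cancer line, through the tail vein. The groups were normal control (E-T-), with neither treatment, and normal exercise (E+T-), with exercise alone. Cancer control (E-T+) had tumor cells without exercise, and cancer exercise (E+T+) had both. All libraries were labelled as gastrocnemius of mice at postnatal day 28. According to the methods, the mice were male, were of about that age when purchased, and were sacrificed later, at the end of the experiment. The label may thus not be the age at sampling. Each group has 1 library, while the design text gives 10 mice per group and the results text of the study speaks of a single representative mouse, so whether a library holds 1 animal or a pool was not settled. The label cancer thus denotes muscle of mice injected with tumor cells and not tumor tissue. Where several values are listed in library order, they are those of E-T-, E+T-, E-T+ and E+T+.

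RNA was sequenced from the 3′ ends of transcripts (QuantSeq), so that reads do not scale with gene length and normalized read counts can be set side by side between genes. Reads rebuilt from the deposited values totalled 10647444 to 13226074 per library, and 14427 to 14830 rows had reads. The smallest share that 3 reads can show was 2.27e-05% to 2.82e-05% of a library. All 10 skeletal muscle fibre markers, such as Acta1 and Myh4, had reads in each library and together took 11.5%, 9.87%, 6.28% and 6.90% of reads in library order. With 1 library per group no difference here has a replicate check, and no p-value is given. The intervals are 95% Clopper-Pearson intervals of the log2 ratio between 2 libraries; reads carry no molecular identifiers, so they cover counting error only and compare libraries rather than conditions. In whole tissue, fewer cells of a type and less RNA per cell cannot be told apart. A gene was counted as higher or lower when its normalized read count differed at least 2-fold and reached 4 in at least 1 of the 2 libraries.

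Of the 45 genes, 37 reached a normalized read count of 4 in at least 1 library and 32 reached 16. No library had a read for Atp6v1b1, Atp6v1e2, Atp6v1g3, Atp6ap1l, Ctsj, Ctsm, Ctsq or Ctsr. Ctsj, Ctsm, Ctsq and Ctsr belong to a rodent cluster of cathepsins known from the placenta, and Atp6v1b1 and Atp6v1g3 encode subunits known from the acid-secreting cells of the kidney. Summed over the 4 libraries, the most abundant members were Ctsd, Lamp1, Ctsl, Atp6v1g1, Atp6v1f and Ctsb. Ctsl owed that place to the tumor libraries, and in normal control it lay below Lamp2, Atp6v1e1 and Atp6v1d as well. Of the 32 members that reached 16, 19 had their highest normalized read count in cancer control, against 32.3% of the 13197 rows of all genes at that level, and 13 had their lowest in normal control and 13 in normal exercise, against 24.9% and 21.8% of those rows. All members together took 0.326%, 0.380%, 0.649% and 0.493% of reads in library order.

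Lysosomal genes are known targets of the transcription factor TFEB and its relatives, which recognise an E-box. The windows searched were the 300 bases around each transcript start listed for a gene from RefSeq (GRCm38, the assembly of mm10). Each ran from 250 bases before the start to 50 after. Both strands were searched for CACGTG and for TCACGTG, which contains it. Some genes had more than 1 window, and the listed start was not always at the outer end of the gene. A window was listed for 34 of the 46 symbols. The windows of Ctsa, Ctsd, Lamp1, Atp6v0b, Atp6v0d1, Atp6v0e and Atp6v1a held the 7-letter motif, so 20.6% of the 34 genes had it, against 4.29% of all 27025 genes with a window. A gene counted if any of its windows held the motif. Ctsa also had a window at the outer start of the gene (chr2:164832622-164832921), which held no copy. The windows of Ctsl and Ctsf held CACGTG alone, which brings the share with the 6-letter motif to 26.5%, against 8.09% of all genes. The windows below are those of the 6 members with the most reads that hold the 7-letter motif, followed by Ctsl, which was added after its values were seen because of its difference between the tumor library and the control. Each is written 5′ to 3′ along the gene, with every copy of the motif in capitals.
Ctsd, chr7:142387778-142388077, minus strand: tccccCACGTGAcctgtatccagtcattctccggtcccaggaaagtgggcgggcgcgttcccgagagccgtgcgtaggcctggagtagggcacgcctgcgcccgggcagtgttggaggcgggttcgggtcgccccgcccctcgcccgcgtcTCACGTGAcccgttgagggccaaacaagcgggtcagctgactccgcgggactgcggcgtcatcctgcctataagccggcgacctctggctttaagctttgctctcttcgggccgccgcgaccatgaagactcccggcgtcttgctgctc
Lamp1, chr8:13158911-13159210, plus strand: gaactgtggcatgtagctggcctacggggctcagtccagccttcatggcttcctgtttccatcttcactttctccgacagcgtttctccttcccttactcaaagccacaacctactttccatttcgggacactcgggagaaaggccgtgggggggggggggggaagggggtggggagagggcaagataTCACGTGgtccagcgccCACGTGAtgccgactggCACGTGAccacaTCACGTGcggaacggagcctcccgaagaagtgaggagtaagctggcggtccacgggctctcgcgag
Atp6v0b, chr4:117887280-117887579, minus strand: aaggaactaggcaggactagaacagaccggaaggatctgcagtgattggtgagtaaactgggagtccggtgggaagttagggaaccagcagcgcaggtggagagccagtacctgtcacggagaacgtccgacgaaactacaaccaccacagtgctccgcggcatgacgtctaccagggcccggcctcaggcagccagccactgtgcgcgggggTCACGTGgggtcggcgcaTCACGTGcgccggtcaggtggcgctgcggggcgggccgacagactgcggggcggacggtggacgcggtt
Atp6v0e, chr17:26676146-26676445, plus strand: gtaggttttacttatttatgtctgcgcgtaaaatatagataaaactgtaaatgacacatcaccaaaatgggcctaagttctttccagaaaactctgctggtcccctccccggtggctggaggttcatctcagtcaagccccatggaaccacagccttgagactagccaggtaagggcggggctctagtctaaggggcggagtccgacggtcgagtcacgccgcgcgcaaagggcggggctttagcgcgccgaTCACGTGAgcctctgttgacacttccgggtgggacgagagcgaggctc
Ctsa, chr2:164833523-164833822, plus strand: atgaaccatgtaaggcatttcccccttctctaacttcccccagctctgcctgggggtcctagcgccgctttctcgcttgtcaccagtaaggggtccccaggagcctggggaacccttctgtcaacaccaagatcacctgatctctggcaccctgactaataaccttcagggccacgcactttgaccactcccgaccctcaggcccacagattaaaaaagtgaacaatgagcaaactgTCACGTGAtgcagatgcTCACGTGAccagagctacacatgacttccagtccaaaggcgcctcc
Atp6v1a, chr16:44139210-44139509, minus strand: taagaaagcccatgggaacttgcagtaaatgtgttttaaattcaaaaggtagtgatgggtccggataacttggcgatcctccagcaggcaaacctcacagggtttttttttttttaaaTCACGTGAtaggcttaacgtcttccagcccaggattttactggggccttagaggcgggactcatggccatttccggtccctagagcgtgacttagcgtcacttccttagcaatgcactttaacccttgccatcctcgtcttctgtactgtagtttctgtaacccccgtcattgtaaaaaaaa
Ctsl, chr13:64370471-64370770, minus strand: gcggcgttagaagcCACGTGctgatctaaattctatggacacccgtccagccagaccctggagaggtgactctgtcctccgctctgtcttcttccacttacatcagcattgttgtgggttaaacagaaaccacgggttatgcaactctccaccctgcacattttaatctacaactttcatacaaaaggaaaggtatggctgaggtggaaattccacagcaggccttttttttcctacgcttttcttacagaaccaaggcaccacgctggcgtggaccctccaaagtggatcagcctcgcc
The Lamp1 window held 4 copies of CACGTG, all within the 61 bases before the start, and Ctsd, Atp6v0b and Ctsa held 2 each. The single copy in Ctsl lay 236 bases before the start listed for that window. The annotated gene reaches 64370772, past the window end at 64370770, so this copy lies inside the gene. The window of Atp6v1a, which held the 7-letter motif, also ends at 44139509 inside a gene that reaches 44139702. The windows of Atp6v0a1, Atp6v1c2 and Atp6v1d, without a motif, likewise lie inside their genes. Bases before the outer starts of Ctsl and of these genes were not searched. A match is a description of the letters only.

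The first comparison asked what the tumor changes in muscle without exercise, between cancer control and normal control. Ctsl, Ctss and Ctsd, the V-ATPase subunits Atp6v1h, Atp6v0d1 and Atp6v0c, and Lamp2 were higher, and Ctsc, Ctsh and Ctso were lower together with 5 genes of very few reads. In all, 7 of 37 members that met the minimum were at least 2-fold higher (18.9%) and 8 were at least 2-fold lower (21.6%). The background over all 14818 rows tested was 20.9% higher and 24.2% lower by the same rule, so the share of members past 2-fold was near the background in either direction. The median log2 fold change of the 37 members was 0.39, with 24 above 0 and 13 below, against -0.04 over all rows. Placing the 5 genes without reads in cancer control at their fold bounds leaves the median of the members where it is.

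Ctsl (chr13:64361890-64370772, minus strand), a cysteine cathepsin of broad specificity, had the largest difference among the 32 members that reached 16 normalized reads. Its normalized read count was 1348 in normal control and 1365 in normal exercise, 13757 in cancer control against 4522 in cancer exercise. The libraries without a tumor were alike, cancer control stood far above both, and cancer exercise lay between. The tumor without exercise gave a log2 fold change of 3.35 (interval 3.27 to 3.44), a 10.2-fold difference. In exercised mice the tumor difference was 1.73 (1.65 to 1.81), and cancer exercise against cancer control gave -1.60 (-1.66 to -1.55), a 3.04-fold difference. Exercise in healthy mice gave 0.02 (-0.09 to 0.12).

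Ctsd (chr7:142375910-142387827, minus strand), the aspartic protease that is the main endopeptidase of many lysosomes, had normalized read counts of 5184 in normal control and 6063 in normal exercise, 14341 in cancer control against 12051 in cancer exercise. Both tumor libraries were above both others. The log2 fold change with the tumor was 1.47 (1.42 to 1.52) without exercise and 0.99 (0.95 to 1.03) with it, the second just short of 2-fold. Ctss (chr3:95526786-95556405, plus strand), a cysteine cathepsin known from antigen-presenting cells, had 313, 297, 1050 and 763 normalized reads in library order. It was higher with the tumor by 1.75 (1.56 to 1.94) without exercise and by 1.36 (1.18 to 1.55) with it, on the log2 scale. Between the tumor-bearing libraries, cancer exercise was lower than cancer control by 0.25 (interval -0.29 to -0.22) for Ctsd and by 0.46 (-0.60 to -0.32) for Ctss.

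Other cysteine cathepsins went the opposite way. Ctsc, the dipeptidyl peptidase that activates serine proteases of immune-cell granules, had normalized read counts of 477 in normal control and 427 in normal exercise, 99.6 in cancer control against 260.02 in cancer exercise. Cancer control was thus the lowest library, with a log2 fold change of -2.25 against normal control (-2.60 to -1.94), and cancer exercise stood 1.38 above it (1.03 to 1.75). Ctsh, an aminopeptidase, had 536, 457, 227 and 269.8 normalized reads, with a difference of -1.24 (-1.48 to -1.01) for the tumor without exercise. Ctso, a widely expressed cathepsin, had 120.2, 94.1, 51.5 and 75.9 normalized reads and a difference of -1.21 (-1.74 to -0.73). For these 3 genes the tumor difference in exercised mice was -0.71 (-0.94 to -0.49), -0.76 (-0.98 to -0.54) and -0.31 (-0.76 to 0.13), each below 2-fold.

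The cathepsin reads thus differed in amount and in make-up. Cathepsins took 0.109% of all reads in normal control (interval of the share 0.107% to 0.111%) and 0.121% in normal exercise (0.119% to 0.123%). They took 0.316% in cancer control (0.313% to 0.320%) against 0.200% in cancer exercise (0.197% to 0.202%). Within the cathepsin reads, Ctsl made up 10.4% in normal control and 10.5% in normal exercise, 38.1% in cancer control against 19.0% in cancer exercise. Ctsb, an endopeptidase and carboxypeptidase, went from 26.1% and 21.2% without a tumor to 12.4% in cancer control against 17.3% in cancer exercise. The level of Ctsb itself was not lower there. Its normalized read count was 3403, 2747, 4460 and 4126 in library order, and its tumor difference was 0.39 (0.32 to 0.46) without exercise. An exon of Ctsb overlaps an exon of Fdft1 on the other strand in the GENCODE annotation, and the strand setting of the count was not stated. Fdft1 differed by 2.02 in the same comparison. Ctsd held 39.8%, 46.8%, 39.7% and 50.5% of the cathepsin reads.

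**Figure D1:**
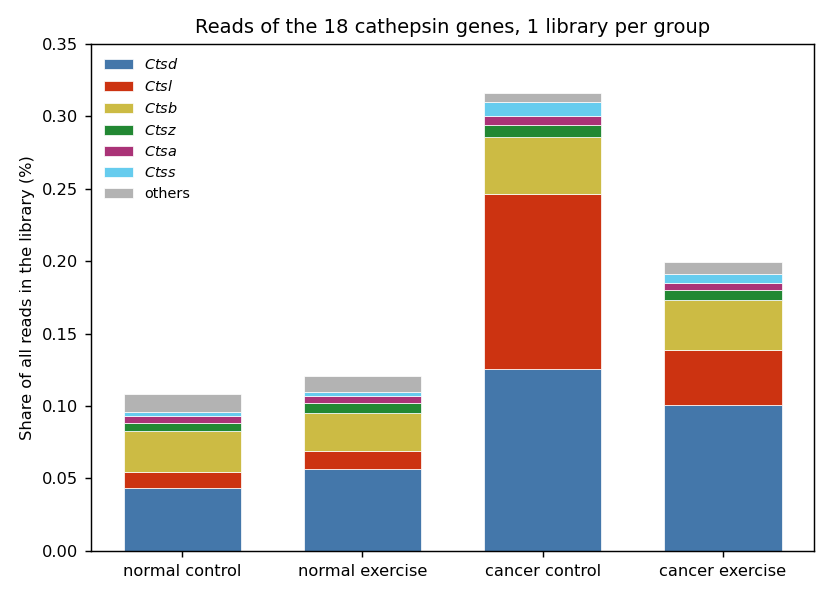
Share of all reads (%) taken by the 18 cathepsin genes in each of the 4 libraries, stacked by gene, with the cathepsins of fewer reads summed as others. The whole bar rises from 0.109% in normal control to 0.316% in cancer control, and the Ctsl part is the one that widens most.

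Ctsg, a serine protease of neutrophil and mast cell granules, had 15 reads in each library without a tumor and none in either library with one. Set against a floor of 3 reads per library, it was 4.97-fold lower with the tumor without exercise and 3.74-fold lower in exercised mice. The counting intervals of these log2 differences ended at -1.83 and -1.42, which are smaller differences than those folds. Ctsw, known from cytotoxic lymphocytes, had 7, 2, 0 and 3 reads. Against the same floor, cancer control lay 2.32-fold below normal control, with a counting interval of the log2 difference that ended at -0.52. An exon of Ctsw overlaps Fibp on the other strand, which had 170, 334, 197 and 188 reads, so the few reads of Ctsw are uncertain. Ctsa, the carboxypeptidase that protects lysosomal neuraminidase, and Ctsz, a carboxypeptidase, stayed under 2-fold in every comparison, with normalized read counts of 531 to 704 and 681 to 1005. Exons of both overlap genes on the other strand, Neurl2 and Pltp for Ctsa and Nelfcd for Ctsz.

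**Figure D2:**
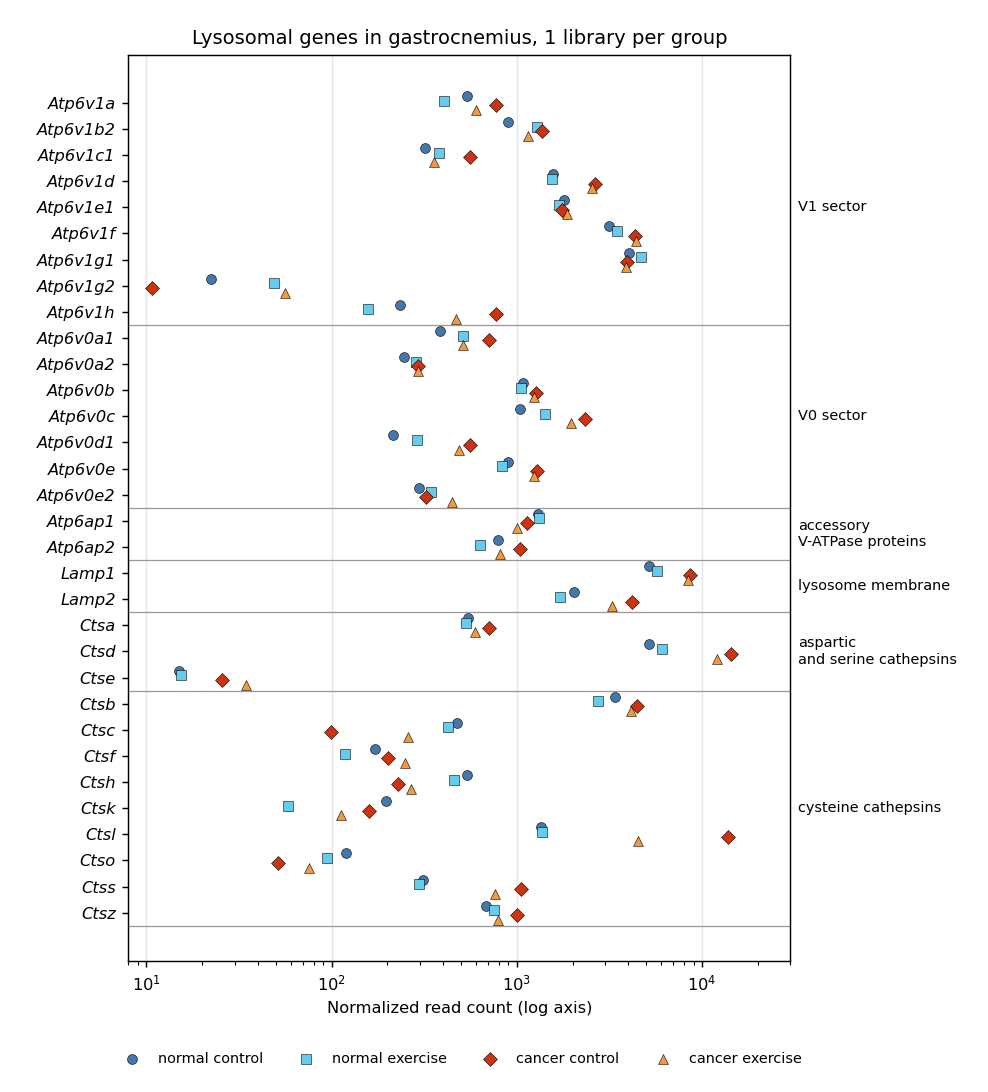
Normalized read count (log axis) of the 32 members that reached 16 in at least 1 library, with 1 marker per library and the genes ordered by role. Cancer control is the highest library for 19 of the 32 genes, and the widest spread among the abundant ones is that of Ctsl, from 1348 to 13757.

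In the V1 sector, Atp6v1h (chr1:5082978-5163213, plus strand) stood out among the subunits. It encodes the H subunit, which is known to couple ATP hydrolysis to the rest of the pump. Its normalized read count was 235.1 in normal control and 158 in normal exercise, 770 in cancer control against 468 in cancer exercise, so that both tumor libraries were above both others. The tumor difference was 1.71 (1.49 to 1.94) without exercise and 1.56 (1.32 to 1.82) with it. The libraries with exercise were lower in both settings, with differences of -0.57 (-0.86 to -0.29) in healthy and -0.72 (-0.89 to -0.55) in tumor-bearing mice, below 2-fold. The overlapping gene Rgs20 on the other strand had no reads.

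The catalytic core moved less. Atp6v1a, the catalytic A subunit, had normalized read counts of 538, 403, 771 and 599.9 in library order. Atp6v1b2, the B subunit that forms the hexamer with it, had 894, 1292, 1361 and 1151 in the same order. Normal control was the lowest library for Atp6v1b2 and normal exercise the lowest for Atp6v1a, so exercise in healthy mice went with -0.42 (-0.60 to -0.24) for A and 0.53 (0.41 to 0.65) for B. The tumor without exercise gave 0.52 (0.35 to 0.69) and 0.61 (0.48 to 0.73). The other V1 subunits present at high level were Atp6v1c1 of the C subunit, Atp6v1d and Atp6v1f of the central rotor, and Atp6v1e1 and Atp6v1g1 of the peripheral stalks. Atp6v1c1 had 318, 382, 560.1 and 356 normalized reads, with a tumor difference of 0.81 (0.61 to 1.03) without exercise and -0.10 (-0.31 to 0.11) with it. Atp6v1f had 3151, 3462, 4326 and 4410. Atp6v1d had 1562 and 1545 normalized reads without a tumor against 2633 and 2545 with it. Atp6v1e1 stayed between 1692 and 1873 and Atp6v1g1 between 3874 and 4711, the latter highest in normal exercise.

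Atp6v1g2, the G subunit isoform known from neurons, was low and followed exercise instead. It had 21, 60, 10 and 52 reads in library order. Both exercise libraries were above both libraries without exercise. The log2 fold change with exercise was 1.09 (0.38 to 1.91) in healthy and 2.28 (1.40 to 3.54) in tumor-bearing mice, and these comparisons share no library. An exon of Atp6v1g2 overlaps Nfkbil1 on the other strand, which had 36, 26, 59 and 46 reads and so did not follow that order. Within the G subunit reads, Atp6v1g2 made up 0.548%, 1.02%, 0.271% and 1.43%, while Atp6v1g1 held the rest.

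In the V0 sector, Atp6v0c and Atp6v0d1 were at least 2-fold higher with the tumor without exercise. Atp6v0c, the proteolipid c subunit that carries the protons, had normalized read counts of 1045 in normal control and 1419 in normal exercise, 2322 in cancer control against 1951 in cancer exercise. Atp6v0d1, the d subunit that joins the ring to the rotor, had 214, 290.2, 561 and 488. For both genes the order from low to high was E-T-, E+T-, E+T+ and E-T+. The tumor without exercise gave 1.15 (1.04 to 1.26) for Atp6v0c and 1.39 (1.15 to 1.63) for Atp6v0d1, and in exercised mice 0.46 (0.36 to 0.56) and 0.75 (0.55 to 0.95). Atp6v0b, the other proteolipid, and Atp6v0e differed little, from 1060 to 1276 and from 835 to 1277 normalized reads. Atp6v0e2, the less abundant isoform of the e subunit, had 298 to 448 and was highest in cancer exercise.

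The a subunit, which forms the proton path, has 4 isoforms, and Atp6v0a1 was the main one in every library. Of the a subunit reads it held 56.3% in normal control and 59.0% in normal exercise, 63.3% in cancer control against 58.0% in cancer exercise. Its normalized read count was 383, 512, 707 and 510.3, while that of Atp6v0a2 stayed between 245 and 293. The a3 isoform, whose gene is Tcirg1 and so lies outside the symbol rule, is known from osteoclasts and other secretory lysosomes, and it went from 6.10% and 7.75% without a tumor to 10.4% and 8.62% with it. Its 39, 83, 108 and 70 reads gave a tumor difference of 1.46 without exercise. Isoforms known from kidney or other epithelia were near 0: Atp6v0a4 had 10, 4, 0 and 0 reads, Atp6v0d2 had 8, 15, 0 and 7, and Atp6v1c2 had 5, 12, 0 and 2. In cancer control all 3 were at 0. Against a floor of 3 reads they were 3.31-fold, 2.65-fold and 1.66-fold lower than in normal control. The counting intervals of these log2 differences ended at -1.15, -0.76 and 0.14, so that of Atp6v1c2 spans 0. Against that floor, cancer exercise had 2.36-fold more Atp6v0d2 than cancer control, with a counting interval of the log2 difference that began at 0.54. Atp6v0a4 shares an exon on the same strand with D630045J12Rik, so its few reads are uncertain.

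Both accessory proteins were under 2-fold throughout. Atp6ap1, an assembly factor and chaperone of the pump, had 1293, 1311, 1133 and 1005 normalized reads, and Atp6ap2, the prorenin receptor, had 794, 632, 1046 and 814. They differed in direction with the tumor without exercise, with -0.19 (-0.31 to -0.07) for Atp6ap1 and 0.40 (0.26 to 0.54) for Atp6ap2. Together the V-ATPase genes took 0.157% of reads in normal control (0.155% to 0.160%) and 0.190% in normal exercise (0.188% to 0.193%). They took 0.220% in cancer control (0.217% to 0.223%) against 0.195% in cancer exercise (0.193% to 0.198%). That is a narrower span than the span of the cathepsin share.

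Lamp1 and Lamp2, the membrane glycoproteins, were higher in both tumor libraries. Lamp1 had normalized read counts of 5187, 5680, 8664 and 8381 in library order, a tumor difference of 0.74 (0.69 to 0.79) without exercise and 0.56 (0.51 to 0.61) with it. An exon of Lamp1 overlaps Grtp1 on the other strand, which had 284, 142, 28 and 59 reads. Lamp2, an isoform of which serves chaperone-mediated autophagy, had 2043, 1705, 4207 and 3269. Its tumor difference was 1.04 (0.96 to 1.12) without exercise and 0.94 (0.86 to 1.02) with it.

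**Figure D3:**
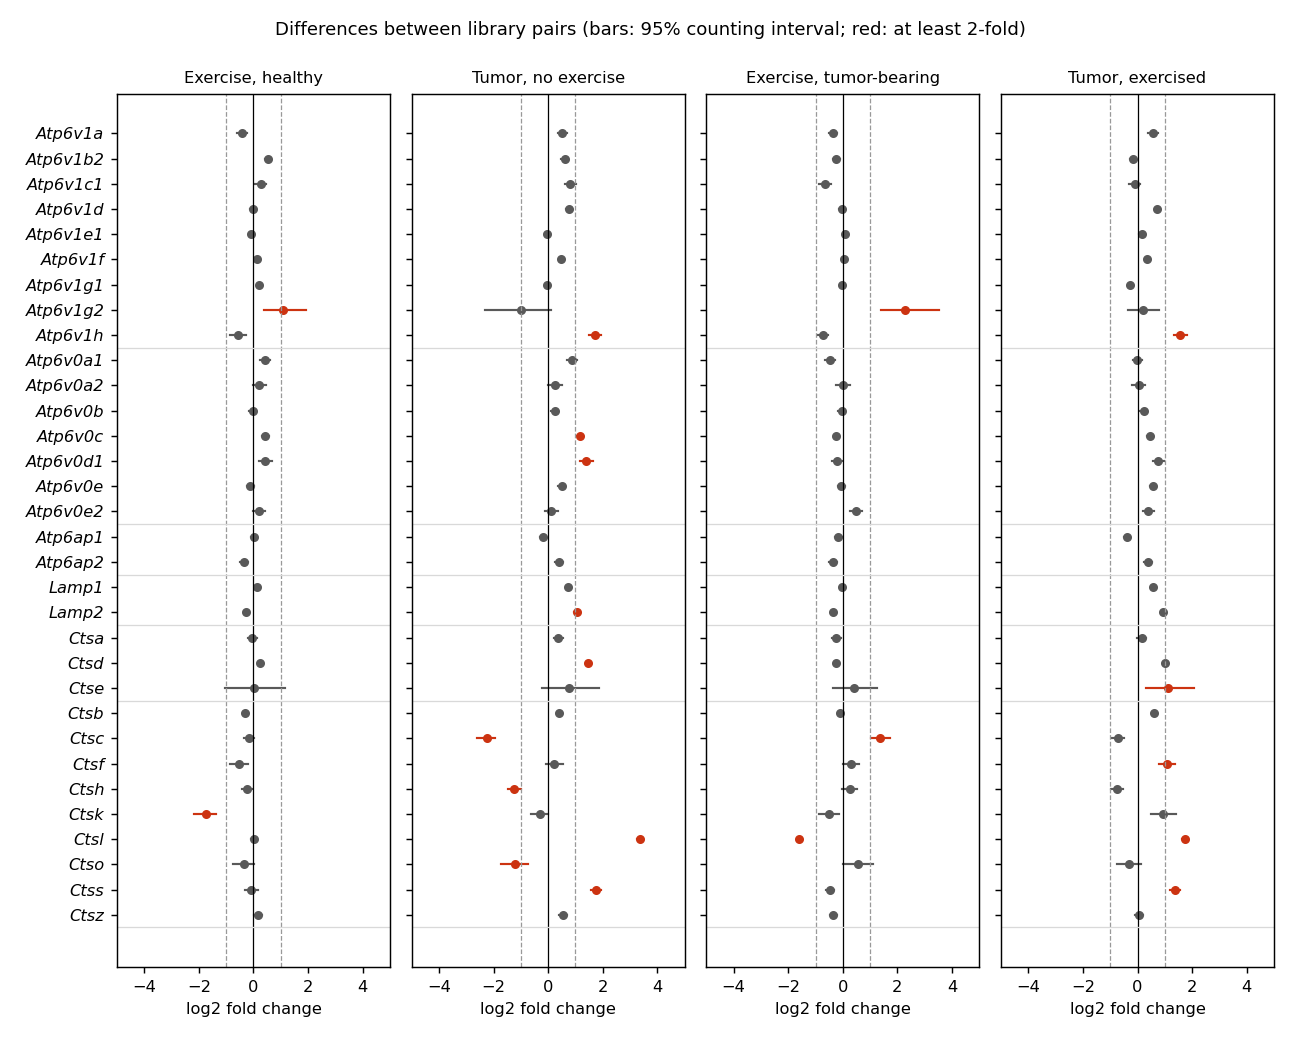
Difference on the log2 scale for the 32 members in each of the 4 library pairs, with 95% counting intervals as bars, dashed lines at 2-fold, and red for genes at least 2-fold apart. Ctsl is the farthest point for the tumor without exercise, at 3.35, and Atp6v1g2 for exercise in tumor-bearing mice, at 2.28, where Ctsl is at -1.60.

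The comparison of the tumor in exercised mice, cancer exercise against normal exercise, shares no library with the comparison of the tumor without exercise. Here 5 of 35 members were at least 2-fold higher, namely Ctsl, Atp6v1h, Ctss, Ctse and Ctsf, and 2 were lower, namely Ctsg and Atp6v1c2. The background over 14470 rows was 13.9% higher and 16.3% lower. Under total count scaling the members split into 3 higher and 2 lower, because Ctse and Ctsf fell short of 2-fold. Ctse, an aspartic protease known from stomach and immune cells, had 14, 19, 24 and 32 reads, and its difference was 1.13 (0.31 to 2.07). Ctsf, a cysteine cathepsin, had 172, 118, 201.4 and 249 normalized reads and a difference of 1.07 (0.77 to 1.38). Atp6v1c2 with 12 reads against 2 had a difference of -1.77 (-5.37 to 0.0002). Of the 20 members whose intervals excluded 0 in both tumor comparisons, 19 had the same direction, 15 higher and 4 lower, and Atp6v1b2 was the exception. Over all rows, 6932 had intervals that excluded 0 in both, and 79.4% of them had the same direction.

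Exercise in healthy mice was examined between normal exercise and normal control. Only 1 of 37 members was at least 2-fold higher, Atp6v1g2, and 3 were lower, Ctsk, Ctsw and Atp6v0a4. The background over 14518 rows was 9.44% higher and 12.1% lower. Ctsk (chr3:95499210-95509387, plus strand), the collagen-degrading cathepsin known from osteoclasts, had normalized read counts of 198 in normal control and 58.2 in normal exercise, 160 in cancer control against 113 in cancer exercise. Normal exercise was the lowest library, with a log2 fold change of -1.75 (-2.17 to -1.36). Ctsw with 7 against 2 reads had a difference of -1.72 (-5.50 to 0.19), and Atp6v0a4 with 10 against 4 reads had -1.45 (-3.84 to 0.08), so counting error alone spans 0 for both. V-ATPase genes had a median of 0.20 and cathepsins of -0.20, with 13 of 21 and 4 of 14 above 0. Total count scaling moved the median of all genes by 0.16 in this comparison, and then 17 of 21 V-ATPase genes and 7 of 14 cathepsins were above 0.

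Exercise in tumor-bearing mice was examined between cancer exercise and cancer control. Ctsl was the single member at least 2-fold lower of 33, and Ctsc, Atp6v1g2 and Atp6v0d2 were at least 2-fold higher. The background over 14491 rows was 15.6% higher and 15.1% lower. The median of the 33 members was -0.11, with 22 below 0 and 10 above, against 0.01 over all rows. This comparison shares cancer control with the tumor comparison without exercise, so that a high or low value in that library enters both with opposite sign. It shares cancer exercise with the tumor comparison in exercised mice, and exercise in healthy mice shares normal control and normal exercise with the respective tumor comparisons. Of the 16 members whose intervals excluded 0 in both exercise comparisons, which share no library, 7 had the same direction and 9 had opposite directions. Over all rows the same direction was found for 45.8% of 5197.

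The 7 members whose windows held TCACGTG were all higher with the tumor, by 0.23 to 1.47 without exercise and by 0.16 to 0.99 with it, and all lower in cancer exercise than in cancer control, with differences from -0.36 to -0.05. The 20 tested members with a window but without the motif spanned -4.02 to 3.35 for the tumor without exercise, with 11 above 0. The -4.02 was that of Ctsg, with 15 reads in normal control and none in cancer control. Atp6v0a4 and Atp6v1c2 of this set also had no reads in cancer control. The 7 with the motif had 201 reads or more in each library, so the sets differ in abundance too. For the tumor in exercised mice 13 of 19 such members were above 0, and for exercise in tumor-bearing mice 10 of 17 were below 0, with a median of -0.17 against -0.20 for the 7 with the motif. Exercise in healthy mice split the 7 into 3 higher and 4 lower, or into 6 higher and 1 lower under total count scaling. Ctsl holds only the 6-letter core in the window printed above. Over all genes, the 731 rows with the motif had a median of 0.08 for the tumor without exercise, against -0.04 for the 10376 rows without it. For the tumor in exercised mice 365 of 715 rows with the motif were higher, and for exercise in tumor-bearing mice 392 of 724 were lower. The 7 members kept their directions under total count and median of ratios scaling in both tumor comparisons and for exercise in tumor-bearing mice. Tfeb itself had 264 normalized reads in normal control, with 409 in normal exercise, 122 in cancer control against 286 in cancer exercise, so it was lowest in the library where Ctsl was highest. Its relatives Tfe3 and Mitf had 72.6 to 103 and 290.2 to 544 normalized reads and differed by 0.36 and 0.70 with the tumor without exercise.

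Other lysosomal genes were taken from lists. Of 32 other hydrolases and activators tested for the tumor without exercise, 4 were at least 2-fold higher and 6 lower, with a median of 0.07. Over all rows the shares in that comparison were 20.9% higher and 24.2% lower. Psap, the precursor of the saposins, had 9001, 8939, 8574 and 7170 normalized reads. Gaa, the acid glucosidase that degrades glycogen in the lysosome, had 604, 1004, 3662 and 2352 and differed by 2.60. Tpp1, a peptidase, differed by 0.58. In the comparisons of exercise in healthy mice, exercise in tumor-bearing mice and the tumor in exercised mice, this list had 2, 2 and 5 members higher and 2, 2 and 3 lower. The numbers tested were 33, 32 and 33. Over all rows the shares were 9.44%, 15.6% and 13.9% higher and 12.1%, 15.1% and 16.3% lower. These shares over all rows also stand beside the lists that follow. Of 16 other membrane and sorting proteins, 1 was higher and 1 lower, with a median of 0.03. The higher gene was Npc1, the cholesterol exporter, with 373, 229, 2264 and 1106 normalized reads, a difference of 2.60. Laptm4a, Cd63 and Npc2 in that list differed by -0.88, 0.94 and 0.56. The other comparisons, with 16 of this list tested in each, had 0, 1 and 1 higher and 0, 2 and 1 lower, in the order of comparisons given above.

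Among 17 regulators of the lysosome tested, the tumor without exercise went with 4 at least 2-fold higher and 2 lower, with a median of -0.14. Rraga, Lamtor1, Rragd and Lamtor4, the 4 regulators with the highest mean, are parts of the machinery that recruits mTORC1 to the lysosome. They differed by -0.14, -0.21, -0.63 and -1.31, while Rragc of the same machinery differed by 1.15. Of the 17 regulators, 7 were above 0 and 10 below. The other comparisons, with 17 regulators tested in each, had 2, 1 and 2 higher and 1 lower each. Among 10 assembly factors and partners of the V-ATPase, Tcirg1 included, 2 were higher and 1 lower, and Ccdc115, Vma21, Oxr1 and Tmem199 differed by -0.27, 0.38, -0.99 and 0.62. Cystatins and stefins inhibit cysteine cathepsins, and of 7 tested in the same comparison 6 were at least 2-fold higher and 1 lower. Cst3 had 7956, 5396, 3540 and 4193 normalized reads, lowest where Ctsl was highest, while Cstb had 441, 358, 1100 and 676 and Cst6 had 172, 416, 410.0 and 315. Stfa1, a stefin of myeloid cells, had no reads without a tumor, and 11.8 normalized reads in cancer control and 21.5 in cancer exercise. Stfa2l1, Stfa2 and Stfa3, also without reads where there was no tumor, had 34.0, 32.9 and 27.6 in cancer control. In cancer exercise Stfa2l1 had 4.38 and Stfa2 had 2.22, and Stfa3 had no reads. Cst7 had none anywhere. The other comparisons, with 3, 7 and 5 of this list tested, had 1, 0 and 2 higher and 0, 3 and 0 lower.

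Markers of other cell types moved as well. Of 13 macrophage markers tested, 6 were at least 2-fold higher with the tumor without exercise and none lower, with a summed normalized read count of 4595 in normal control and 4547 in normal exercise, 7880 in cancer control against 7289 in cancer exercise. Among them, C1qa differed by 1.23 and Csf1r by -0.69, Mertk was at 0 in each library, and Adgre1 had 71.3, 88.4, 67.5 and 62.8. Cd68, itself a lysosomal membrane protein of macrophages, had 92.6, 94.7, 1024 and 319, the order of Ctsl. Neutrophil markers summed to 85.4, 167, 2698 and 1999, led by S100a8 and S100a9, with 7 of 9 higher and Elane at 0 in each library. Mast cell markers, led by Tpsb2 and Cpa3, summed to 1032, 490.1, 854 and 415. Keratinocyte markers, led by Krt10 and Perp, summed to 278, 262.3, 981 and 113, with 10 of 11 higher in cancer control. The part of any of these in the cathepsin differences was not tested.

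Fibroblast markers, led by Dcn and Col1a2, summed to 97387, 45952, 37831 and 38876. In normal exercise, the library in which Ctsk was lowest, 8 of 10 were lower. In cancer control 8 of 10 were lower too, and there Ctsk differed from normal control by -0.31 (-0.63 to 0.01). Osteoclast markers summed to 121, 81.9, 85.7 and 112, led by Mmp9 and Acp5, with Dcstamp and Oscar at 0 in each library. T and NK cell markers, led by Cd2 and Gzma and with Cd8a and Prf1 at 0 in each library, summed to 25.6, 45.5, 46.7 and 18.5. Adipocyte markers, led by Fabp4 and Cfd, summed to 37807, 21059, 12507 and 26278, and red cell markers, led by Hba-a1 and Hbb-bs, to 311616, 62819, 300727 and 656758. The muscle fibre markers had a median of -0.52 for the tumor without exercise, with 1 of 10 higher and 4 lower. Their part in the differences of the lysosomal genes was not tested.

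**Figure D4:**
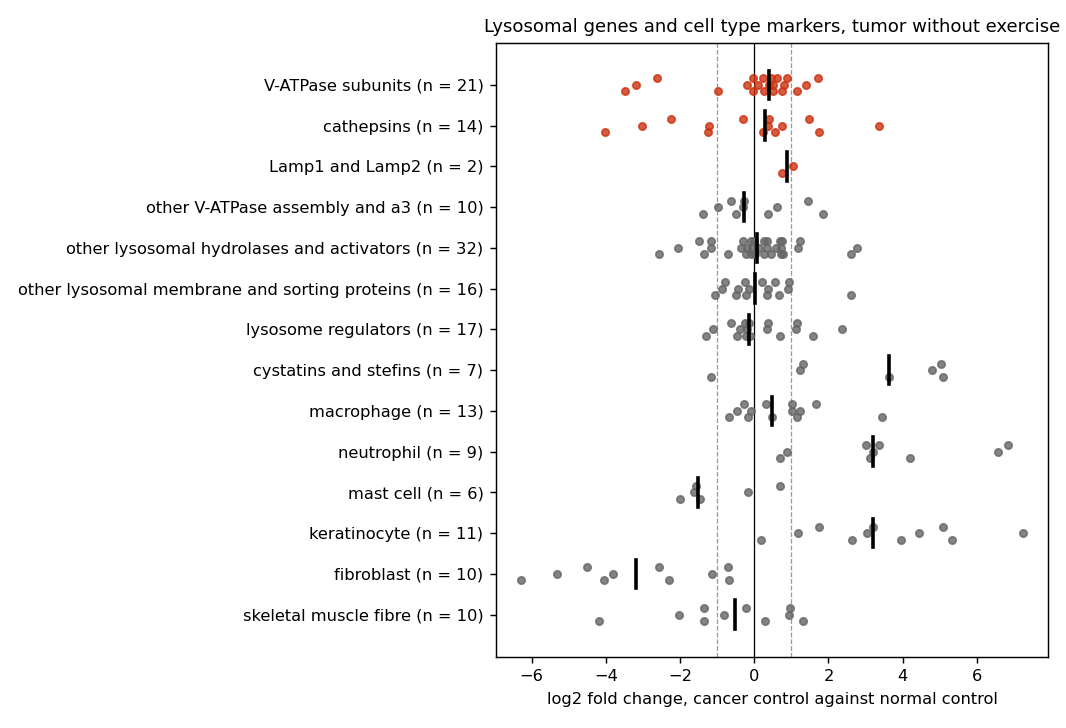
Difference on the log2 scale between cancer control and normal control for each gene that reached a normalized read count of 4 in at least 1 of the 2 libraries, 1 row per list, with the lysosomal members in red, the median as a black bar and dashed lines at 2-fold. The medians of V-ATPase genes (0.40) and cathepsins (0.30) lie near 0 beside those of the neutrophil, keratinocyte and fibroblast lists, and single cathepsins lie far to either side.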

How the data were processed

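The 4 libraries, 1 per group, were grouped by their titles. According to the methods and the submitters' processing notes, the authors aligned QuantSeq reads with Bowtie2 to mm10, counted them per gene with bedtools and applied a quantile normalization in R; versions, annotation, strand setting and the handling of reads matching several genes are not given in the sources used here. The unit of the deposited values was not named in their headers. They were taken as log2, with 1 added to each normalized count before the log, as inferred from the values and the methods. A model of this normalization, 1 scaling factor per library and 1 dispersion (0.339), was inverted and tested on simulated data, and 100% of the deposited values came from whole reads within 0.0006. Between 94.9% and 96.2% of values were tied to a single read count, so counts of abundant genes are approximate.

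Differences were taken between deposited log2 values. Their pseudocount of 1 shrinks differences of genes with few reads. A gene was called at 2-fold or more if either library of the pair reached 4 normalized reads. No count test was run, since each group has 1 library. Genes without reads were set to a floor of 3 reads for the folds given, which leave out the counting error of the other library. Fully described members reached 16 normalized reads and changed at least 2-fold, or complete the V-ATPase; from other lysosomal lists the 4 with the highest mean, plus Tfeb, Tfe3, Mitf and Tcirg1, were named, and from marker lists the 2 highest and those at 0. A hydrolase among these is not reported here. The other genes named were chosen after their values were seen. Members and lists were chosen with earlier results of these data known. Other scalings, pseudocount, minimum and thresholds were tried. Promoter windows came from RefSeq and exon overlaps from GENCODE, both on GRCm38. Python 3.11.15 with numpy 2.4.6, pandas 2.3.3, scipy 1.17.1 and matplotlib 3.10.9 was used.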

Additional observations from a re-analysis of the deposited data

Results flagged for a closer look

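In both exercise comparisons, 16 members had counting intervals that excluded 0. For 9 of these the difference with exercise went one way in healthy mice and the other way in tumor-bearing mice. Over all rows the directions were opposite for 2815 of 5197, a similar share. The change of the exercise difference from healthy to tumor-bearing mice was -0.89 for Atp6v0a1, -0.91 for Atp6v1c1, -0.69 for Atp6v0c, -0.77 for Atp6v1b2, -0.64 for Atp6v0d1, -0.50 for Ctsz, -0.48 for Ctsd and -0.18 for Lamp1 on the log2 scale, all from higher to lower. Ctsf went from lower to higher, with a change of 0.84. Of 20 members whose intervals excluded 0 in both tumor comparisons, Atp6v1b2 was the single one that turned, from 0.61 without exercise to -0.17 with it. Its change of -0.77 is the same number as its exercise change, because both are made of the same 4 values, and is not a second observation. Over all rows, 1429 of 6932 turned. None of the exercise and tumor differences behind these changes reached 2-fold, and the directions were opposite under total count and median of ratios scaling too. The difference between the settings was not tested, because each group has 1 library and the intervals cover counting error only.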

How the results depend on the processing

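No paired analysis was possible because each group has 1 library, and leaving out a replicate could not be done for the same reason. Of 60 single-gene values recomputed under other scalings and a pseudocount of 4, all 60 kept their direction and 57 were still at least 2-fold. The others were, for the tumor in exercised mice, Ctse (0.97 under total count scaling and 0.9992 with a pseudocount of 4) and Ctsf (0.91 under total count scaling). Total count scaling moved the median of all genes by 0.16 for exercise in healthy mice and by -0.15 for the tumor in exercised mice; the V-ATPase median became 0.3598 and 0.0594 there, and 3 members in place of 5 were higher for the tumor in exercised mice. Of 56 counts, 44 were within 1.5 times of the value reported. Without a minimum, 5 of 45 members were higher for exercise in tumor-bearing mice, beside 2691 of 23282 rows of all genes. With a minimum of 16, members lower were 1 for exercise in healthy mice and 3 for the tumor without exercise. For the tumor in exercised mice there were 0. Over all rows 988, 2744 and 1595 were lower at that minimum, in the same order. At 1.5-fold, 2 of 37 members were higher for exercise in healthy mice and 13 of 37 for the tumor without exercise. For exercise in tumor-bearing mice 3 of 33 were lower. For the tumor in exercised mice 11 of 35 were higher and 5 lower. Over all rows at 1.5-fold, these counts were 2546 of 14518, 4527 of 14818, 3517 of 14491, and 3309 and 3798 of 14470. Requiring the interval to exclude 0 left 1 lower for exercise in healthy mice and 1 lower for the tumor in exercised mice. The low counts lost under the minimum of 16 and the interval were those of genes with few reads. Depth limits Ctsg, Ctsw, Atp6v0a4, Atp6v0d2 and Atp6v1c2, each with at most 15 reads per library.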
